A study of Mus musculus with 4 samples.

Results

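The genes described here are Cntnap2, Cntn4, Fam155a, Pde10a, Slc2a13, Auts2, Cadm2, Csmd1, Asic2 and Dlg2, 10 of the 32285 genes listed in the count matrices. They were picked by symbol because long genes with neuronal names had been lower in knockout nuclei of neurons, oligodendrocytes and microglia, so the difference between genotypes in those classes is described below without a test. Nuclei came from the cortex of C57BL/6 mice aged 5 months, either wildtype or Setdb1-CK-cKO, with 2 animals per genotype and 1 droplet library (10x 3′) per animal. The Setdb1 protein methylates histone H3 on lysine 9, a mark of silent chromatin, and cKO marks a conditional knockout. The labels do not explain CK, and they do not name the cells meant to lose Setdb1 or the deleted exons.

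Neurons carry many genes whose introns stretch over very long stretches of genome, and a large part of these genes encode adhesion molecules, channels and scaffolds of axons and synapses. Nuclear libraries hold much unspliced RNA of such genes. Droplet libraries also hold RNA that leaked from broken cells and is counted in nuclei that did not make it, called free RNA here. In cortex much of it comes from neurons, so a neuronal transcript counted in a glial nucleus can be the nucleus's own or free RNA.

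The 10 genes lie on 8 chromosomes (GENCODE vM21, GRCm38, from first to last annotated base). Cntnap2 spans 2245 kb of chromosome 6 (45059357 to 47304213), Dlg2 spans 1973 kb of chromosome 7 (90476672 to 92449247) and Csmd1 spans 1643 kb of chromosome 8 (15892537 to 17535586). Auts2 spans 1106 kb of chromosome 5, Asic2 1088 kb of chromosome 11, Cntn4 1022 kb of chromosome 6 and Cadm2 965 kb of chromosome 16. Fam155a spans 565 kb of chromosome 8, Pde10a 461 kb of chromosome 17 and Slc2a13 306 kb of chromosome 15. Slc2a13, the shortest, was still exceeded by only 1.80% of the 32235 genes matched to the annotation, whose median span was 12.3 kb. Genes on the opposite strand overlap Auts2, Asic2, Csmd1, Cadm2, Pde10a and Dlg2. The labels do not say whether counting used strand, so it is not known from them whether UMIs of those pairs were kept apart. Dlg2 also overlaps 1 gene on its own strand.

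RefSeq promoter windows (GRCm38.p6) were found for 7 of the 10 genes, 13 windows in all, and none for Auts2, Csmd1 or Fam155a. The 250 bases before the start are printed for 3 of the genes that were lower together, chosen as windows that touch no annotated exon and hold the motif GGGCGG, with every CG in capitals. The windows are chr6:45059811-45060060 on the plus strand for Cntnap2, chr15:91573262-91573511 on the minus strand for Slc2a13 and chr16:67620909-67621158 on the minus strand for Cadm2. The Cntnap2 window lies within the annotated gene, between exons, and the other two end at the annotated gene start.
Cntnap2: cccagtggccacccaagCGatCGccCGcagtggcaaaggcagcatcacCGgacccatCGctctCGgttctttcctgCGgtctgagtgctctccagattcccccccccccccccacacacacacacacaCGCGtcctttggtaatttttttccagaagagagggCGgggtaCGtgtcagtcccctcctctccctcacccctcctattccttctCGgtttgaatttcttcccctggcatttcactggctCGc
Slc2a13: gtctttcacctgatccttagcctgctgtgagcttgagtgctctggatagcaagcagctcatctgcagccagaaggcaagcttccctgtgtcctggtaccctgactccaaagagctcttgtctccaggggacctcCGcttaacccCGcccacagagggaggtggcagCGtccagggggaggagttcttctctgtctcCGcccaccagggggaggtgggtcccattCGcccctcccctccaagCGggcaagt
Cadm2: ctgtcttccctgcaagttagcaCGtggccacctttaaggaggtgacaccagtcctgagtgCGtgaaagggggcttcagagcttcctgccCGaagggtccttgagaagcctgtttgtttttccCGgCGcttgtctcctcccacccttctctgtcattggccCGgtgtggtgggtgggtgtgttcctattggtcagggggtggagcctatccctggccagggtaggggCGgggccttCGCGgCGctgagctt
CG occurred 13 times in the Cntnap2 window, 6 times in that of Slc2a13 and 10 times in that of Cadm2. The median was 6 over the 32851 windows of the same length. It was also 6 over the 13 windows found here, which ran from 1 to 21. The printed windows were chosen by a motif that contains a CG, which favours higher counts. CG was present in all 13 windows of the 10 genes and in 92.1% of all windows. GGGCGG, the core of a GC box, was present on either strand in 4 of the 13 (those printed and 1 window of Pde10a) and in 32.7% of all windows. It contains a CG, so the motifs overlap. TATAAA was present in 1 of the 13 (a window of Dlg2) and in 12.4% of all windows. These are counts of letters, and no binding was measured.

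Of 52038 nuclei kept, 46934 fell in named classes, and 10 classes had at least 30 nuclei in every library. UMIs were summed per class and library, so the animal is the replicate (n = 2 per genotype). Excitatory neurons (26714 nuclei) had median depths of 3140 to 4041 UMIs per library, oligodendrocytes (6501) 864.5 to 1030 and microglia (2315) 759.5 to 881.5. Setdb1 itself was at 73.0 and 67.8 CPM (UMIs as a share of the library's total, scaled to a fixed sum and here by TMM) in wildtype and 71.0 and 67.5 in knockout excitatory neurons (log2 fold change -0.02 ± 0.08 SE, adjusted p = 0.899, edgeR), and with the deleted exons unknown a 3′ count may not see the deletion. RNA from sex chromosomes went against the listed sex in 2 of the 4 libraries, the 2 knockout ones, and exchanging them leaves the groups the same. Pairs of libraries shared 48 to 64 barcodes. Ribosomal protein genes took a larger share of UMIs in both knockout libraries than in both wildtype ones in every class analysed (1.49% and 1.69% against 1.11% and 1.26% in oligodendrocytes). This shift moved with the results on the 10 genes below. With ribosomal and mitochondrial genes left out of the fits, all 10 stayed below 0 in excitatory neurons and in oligodendrocytes. The left-out genes held so few UMIs that their removal could move values only slightly. That fit therefore does not test what the shift marks.

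The genes were not all neuronal. Levels between classes are CPM of all UMIs, as means over the 4 libraries with their SD, and compare classes for 1 gene, never genes with each other. Csmd1, a large membrane protein with complement-control domains, was highest in excitatory neurons (5394 ± 179 CPM, SD, n = 4) and stood at 4598 ± 238 in oligodendrocyte precursors, 728 ± 144 in microglia and 657 ± 179 in oligodendrocytes. Cntnap2, which clusters potassium channels along myelinated axons, was highest in inhibitory neurons (4335 ± 434 CPM), above excitatory neurons (1311 ± 128), and was at 279 ± 85.5 in oligodendrocytes. Pde10a, a phosphodiesterase of cyclic AMP and cyclic GMP known from striatum, was highest in striatal projection neurons (2955 ± 688 CPM, only 50 to 121 nuclei per library), with 138 ± 13.7 in microglia. Auts2, a nuclear regulator of transcription linked to neurodevelopmental disorders, was at 1883 ± 361 CPM in astrocytes and 1815 ± 379 in excitatory neurons, and was highest in striatal projection neurons (3022 ± 417) and committed oligodendrocyte precursors (2979 ± 534), whose spreads overlap. Cadm2, a synaptic adhesion molecule of the SynCAM family, was at 2423 ± 234 CPM in excitatory neurons, 2210 ± 160 in astrocytes and 1914 ± 117 in oligodendrocyte precursors.

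All 10 genes were higher in excitatory neurons than in microglia and than in oligodendrocytes (edgeR adjusted p at most 7.86e-111 and 1.80e-11, library as a term, 4 libraries). Of all genes tested, 33.4% were higher in excitatory neurons than in microglia, and 35.1% than in oligodendrocytes. These fits use TMM scaling, which gives larger folds than CPM of all UMIs. With TMM the excess over microglia ran from 6.46-fold for Cadm2 to 12.7-fold for Asic2, an acid-sensing sodium channel, and by CPM of all UMIs it was 4.42-fold and 8.87-fold for the same genes. Over oligodendrocytes it ran from 2.04-fold for Auts2 to 11.6-fold for Asic2 with TMM, and was 1.75-fold and 9.67-fold by CPM of all UMIs. Against oligodendrocyte precursors all 10 were also higher in excitatory neurons (background 24.6%), with TMM by 1.31-fold for Cntn4, an axonal adhesion protein of the contactin family, and 4.74-fold for Cntnap2. Against astrocytes 9 of 10 were higher in excitatory neurons (background 29.9%), and Auts2 was not called (adjusted p = 0.145). Its ratio of excitatory neurons to astrocytes was 1.14 with TMM and 0.964 by CPM of all UMIs, so its direction depends on the scaling. Of the 10 genes, 5 were higher in excitatory and 2 (Cntnap2 and Slc2a13) in inhibitory neurons, against backgrounds of 22.8% and 22.3%.

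**Figure D1:**
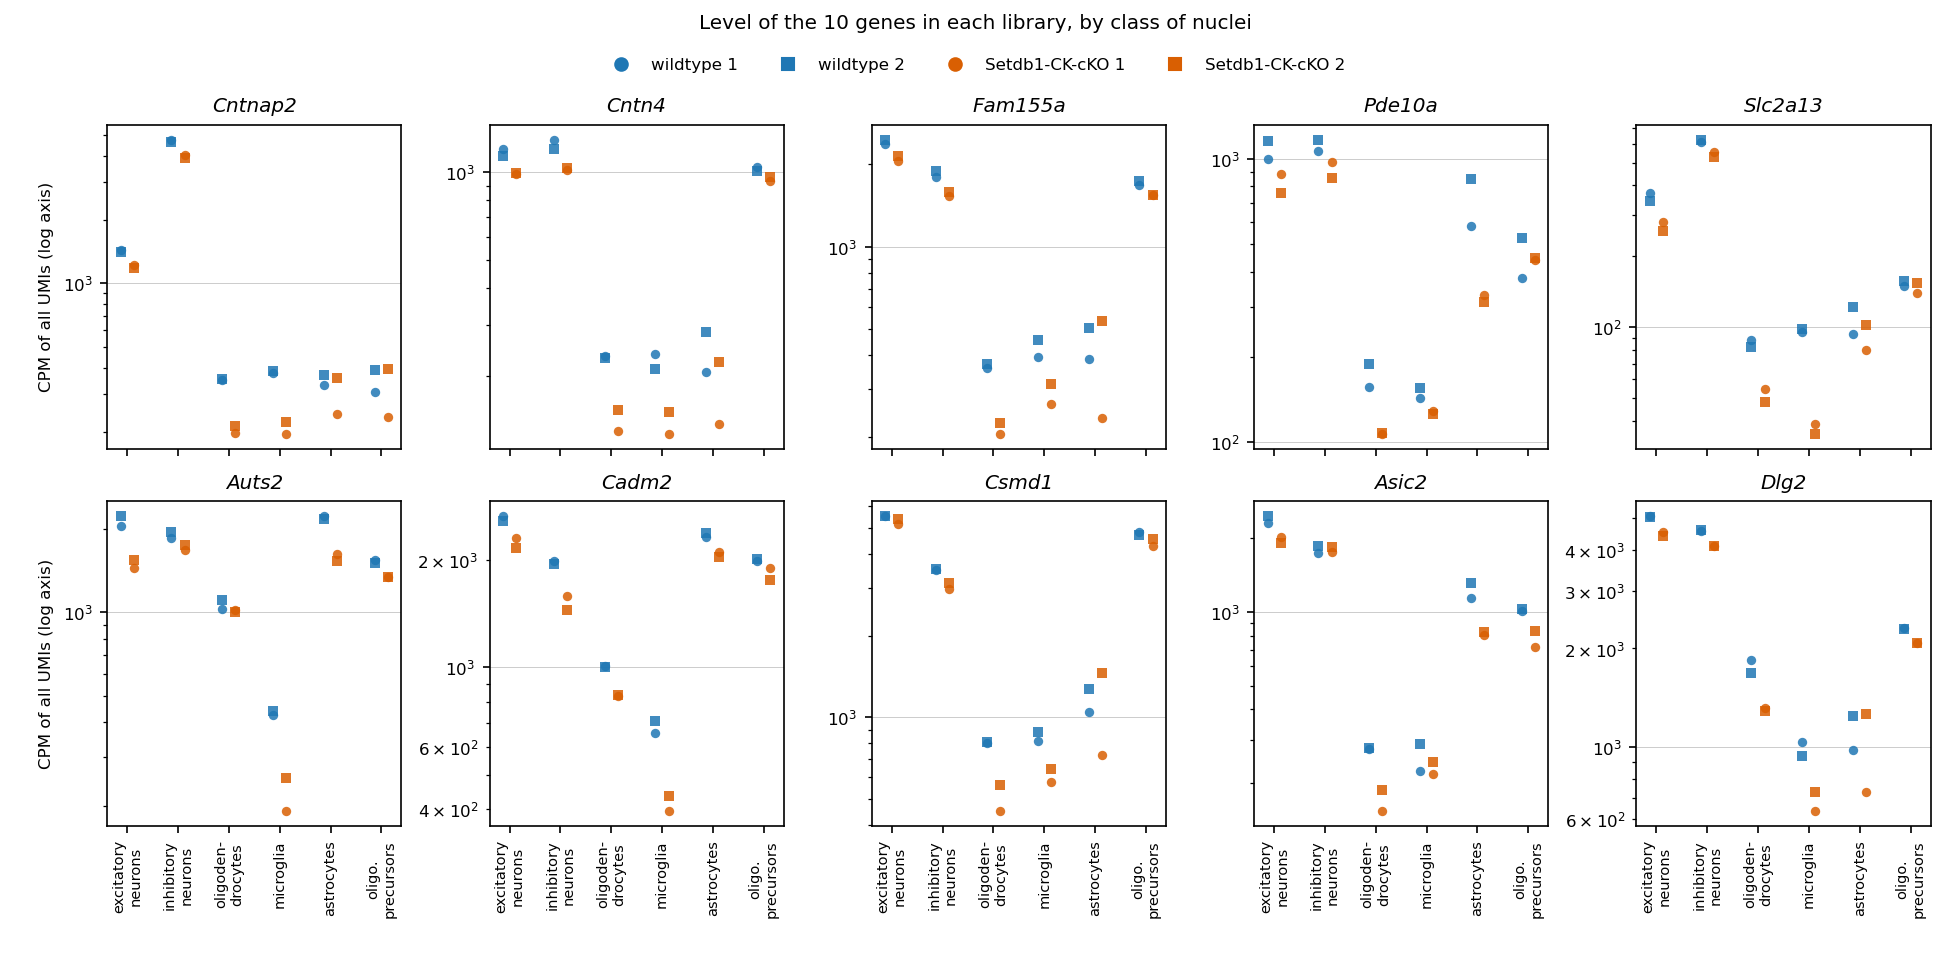
CPM of all UMIs (log axis) of each of the 10 genes in 6 classes; each point is 1 library, blue wildtype and orange Setdb1-CK-cKO, with circles for replicate 1 and squares for replicate 2. In excitatory neurons both knockout points lie below both wildtype points for every gene, and the level falls from neurons to microglia and oligodendrocytes except where glia themselves are high, as for Auts2 in astrocytes.

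In excitatory neurons all 10 genes were lower in the knockout, and for each of them both knockout libraries lay below both wildtype libraries. This was so for 26.1% of all genes tested in that class. Since the contrast chose the genes, nothing is read from that count. Auts2 was at 2046 and 2225 CPM in wildtype and at 1444 and 1546 in knockout libraries. Its log2 fold change was -0.54 ± 0.06 (SE), a level 31.4% lower. The wildtype libraries were both high and both knockout libraries low, with no overlap. Slc2a13, a proton-coupled transporter of myo-inositol, was at 371 and 342 CPM against 280 and 255 (-0.45 ± 0.08). Pde10a was at 999 and 1159 against 886 and 761 (-0.42 ± 0.09), with the largest SE of the 10 in this class. The smallest difference was that of Csmd1, at 5515 and 5534 CPM in wildtype and 5145 and 5384 in knockout libraries (-0.10 ± 0.04). The other members lay between -0.21 (Dlg2) and -0.31 (Asic2).

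The excitatory class was made of 10 clusters, which share the 4 libraries and the contrast that chose the genes, so their signs are no separate evidence. Each of the 10 genes had a negative log2 fold change in all 10 clusters, as did 7.27% of the 6972 genes tested in all of them. Some values lay close to 0. Among these clusters Auts2 ran from -0.77 to -0.08, Pde10a from -0.75 to -0.02 and Cadm2, the most even, from -0.35 to -0.18.

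In inhibitory neurons 9 of 10 genes had both knockout libraries below both wildtype libraries (background 22%). Cntnap2, at its highest there, was at 4765 and 4649 CPM in wildtype and 4012 and 3915 in knockout libraries (-0.27 ± 0.04). Excitatory neurons had the same log2 fold change to 2 decimals, at a lower level. Cadm2 showed the largest difference (-0.40 ± 0.06). Auts2, first in excitatory neurons, was at -0.17 ± 0.06 here. Asic2 was the exception, at 1728 and 1850 CPM against 1759 and 1843, so the groups overlapped (-0.01 ± 0.06). Of the 3 inhibitory clusters, 1 had Asic2 lower in the knockout, at -0.29, and the other two had it at 0.06 and 0.18. In striatal projection neurons Pde10a stood at -0.57 ± 0.13 and Slc2a13 at -0.52 ± 0.19, while Asic2 was at 0.17 ± 0.16, and at -0.21 without knockout replicate 2. Of the 10, 7 had both knockout libraries of striatal neurons below both wildtype ones (background 19.1%).

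In oligodendrocytes all 10 genes again had both knockout libraries below both wildtype libraries (background 22.3%), and most differences were larger than in neurons. Cntnap2 was at 352 and 355 CPM in wildtype and 197 and 213 in knockout libraries (-0.76 ± 0.14, 41.1% lower). Fam155a, an auxiliary subunit of the NALCN sodium leak channel, was at 358 and 373 CPM against 205 and 226 (-0.74 ± 0.14). Cntn4, Slc2a13, Asic2, Pde10a and Csmd1 followed, between -0.70 and -0.65. These 7 genes sat closer together than their standard errors. Dlg2, the postsynaptic scaffold PSD-93, was at 1844 and 1688 CPM against 1312 and 1292 (-0.42 ± 0.10). Cadm2 was at -0.25 ± 0.11. Auts2 was almost level, at 1028 and 1108 CPM against 1021 and 1000 (-0.06 ± 0.11), a gap between the groups smaller than that between the wildtype libraries.

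In microglia 9 of 10 had both knockout libraries below both wildtype libraries (background 19.6%). Slc2a13 was at 95.6 and 98.7 CPM in wildtype and 38.8 and 35.0 in knockout libraries (-1.38 ± 0.26, 61.7% lower). Auts2 was at 426 and 441 CPM against 192 and 253 (-0.95 ± 0.18), unlike its near-level value in oligodendrocytes. Whether those 2 values differ was not tested. Cntnap2 was at 376 and 385 CPM against 194 and 221 (-0.86 ± 0.17). Asic2 overlapped, at 225 and 290 CPM against 219 and 243 (-0.14 ± 0.18), and Pde10a was at -0.22 ± 0.19. With nuclei of at least 1000 UMIs alone, Asic2 and Pde10a were at 0.17 and 0.17, Fam155a was at -0.07, Dlg2 at -0.13, Csmd1 at -0.20, Cntnap2 at -0.48 and Slc2a13 at -2.06. Without wildtype replicate 2 Asic2 was at 0.05.

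The share of nuclei with at least 1 UMI moved as the levels did when each nucleus was thinned to 800 UMIs, leaving out shallower ones. Cntnap2 was seen in 27.0% and 27.8% of wildtype microglia (337 and 313 nuclei) and in 15.1% and 13.6% of knockout microglia (357 and 280). The exact Clopper-Pearson 95% intervals, which cover counting error only, were 22.3% to 32.1% and 22.9% to 33.1% against 11.6% to 19.3% and 9.79% to 18.1%. Auts2 was seen in 52.4% and 55.6% of wildtype oligodendrocytes and 51.3% and 53.4% of knockout ones, with overlapping groups. Before thinning, Cntnap2 was in 27.8% and 27.9% of wildtype and 15.5% and 13.6% of knockout microglia. No class was taken to lack these genes, so neuronal markers in glia are set beside them next.

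**Figure D2:**
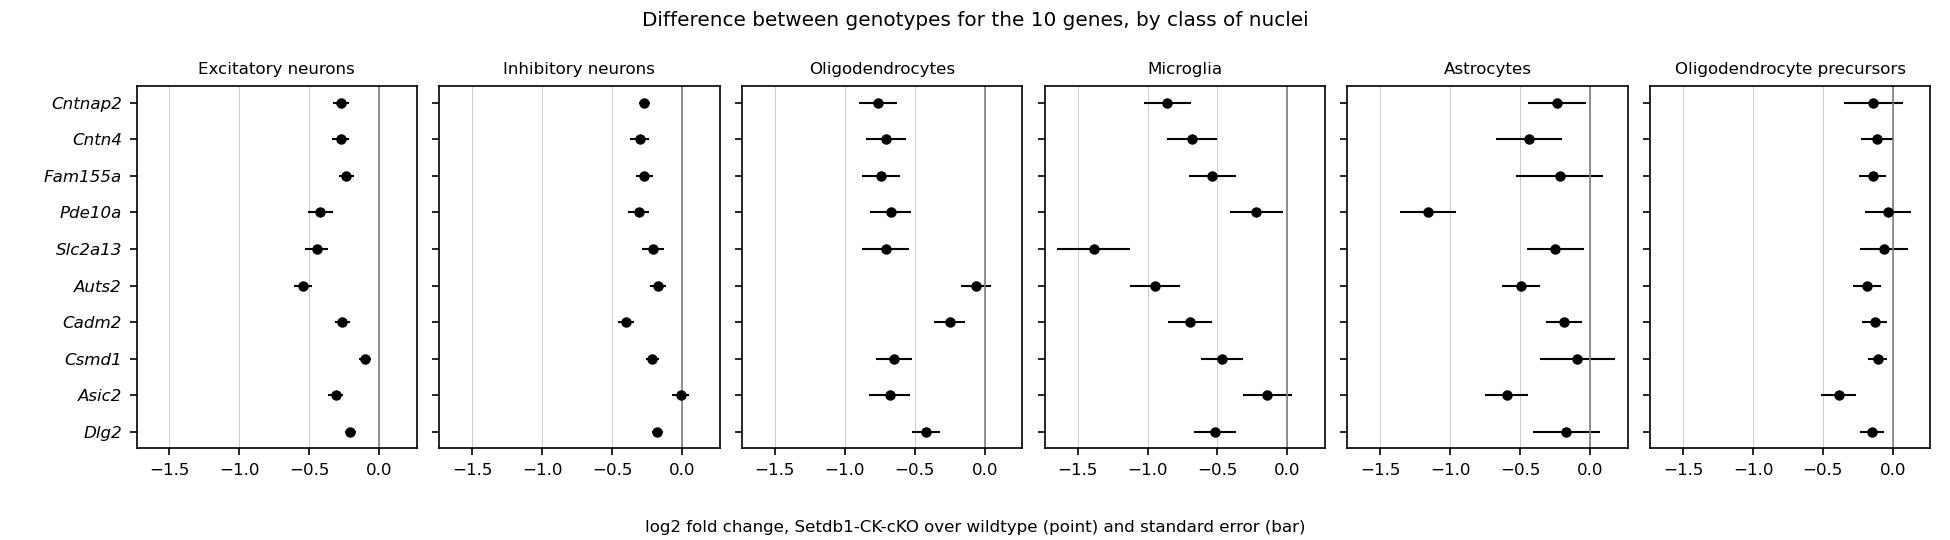
Log2 fold change, Setdb1-CK-cKO over wildtype, of the 10 genes in 6 classes; points are edgeR estimates and bars their standard errors (n = 2 animals per genotype). Every point lies at or below 0, those of oligodendrocytes and microglia spread from -0.06 to -1.38, and those of oligodendrocyte precursors stay between -0.39 and -0.03.

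Neuronal RNA was abundant in glial nuclei. A list of 16 neuron markers summed to 7907 to 10242 CPM in oligodendrocytes and 9189 to 11405 CPM in microglia, or 26.0% to 32.6% and 30.2% to 36.3% of its level in excitatory neurons of the same library. None of the 16 was at 0 in either class. Slc17a7, the vesicular glutamate transporter of excitatory neurons, was at 291 CPM or more in every oligodendrocyte library. By TMM-scaled CPM it stood at 296 to 411 there, above the 240 to 278 in excitatory neurons themselves. At most 2 glial nuclei per class and library held no UMI of the list. The share depended on the gene, so the markers did not keep the 1 ratio that the estimate assumes for free RNA. Nrgn, an 8.41 kb gene for a postsynaptic protein, was at 252% to 258% of its excitatory level in oligodendrocytes. Kcnip4, a 1135 kb gene for a potassium channel partner, was at 15.8% of it in wildtype replicate 1 and 10.4% in knockout replicate 1. The 7 markers spanning at least 100 kb came to 14.6% to 19.8% together in oligodendrocytes and 16.1% to 22.7% in microglia. The planned estimate was that of the whole list, and these long markers were an unplanned addition.

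In microglia all 10 stood, as means per genotype, between 10.8% and 27.3% of their excitatory level. Asic2 (10.8% in wildtype, 11.8% in knockout) and Csmd1 (15.3% and 11.5%) were below all 16 markers in each of the 4 libraries. Cntnap2 was at 26.8% and 17.3%. How much of a level free RNA would cover depends on the markers that set its amount. The estimate takes excitatory neurons as its only source. Cntnap2 and Slc2a13 were higher in inhibitory neurons (4335 against 1311 and 580 against 312 CPM), whose free RNA was not estimated. In every microglial library free RNA so estimated would cover the whole measured level of 10 of the 10 genes by the whole list. By the 7 long markers the count was 7 and by the lowest single marker 2. By the long markers free RNA came to 82.9% to 95.8% of the Cadm2 level. In oligodendrocytes the counts were 7 by the whole list, 4 by the long markers (Asic2, Csmd1, Fam155a and Pde10a) and 3 by the lowest marker. By the long markers Cntnap2 reached 78.0% to 92.6%. Auts2 stood apart there, at 49.8% of its excitatory level in the lowest library and 70.7% in the highest, as did Cadm2 (38.4% in wildtype, 37.4% in knockout) and Dlg2 (34.9% and 29.1%). Free RNA at that rate made up 20.6% to 39.7% of the Auts2 level, 40.4% to 51.0% of that of Cadm2 and 50.5% to 59.0% of that of Dlg2. In oligodendrocyte precursors it covered the whole level in every library for 0 of the 10 genes by the long markers and for 1 by the whole list.

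**Figure D3:**
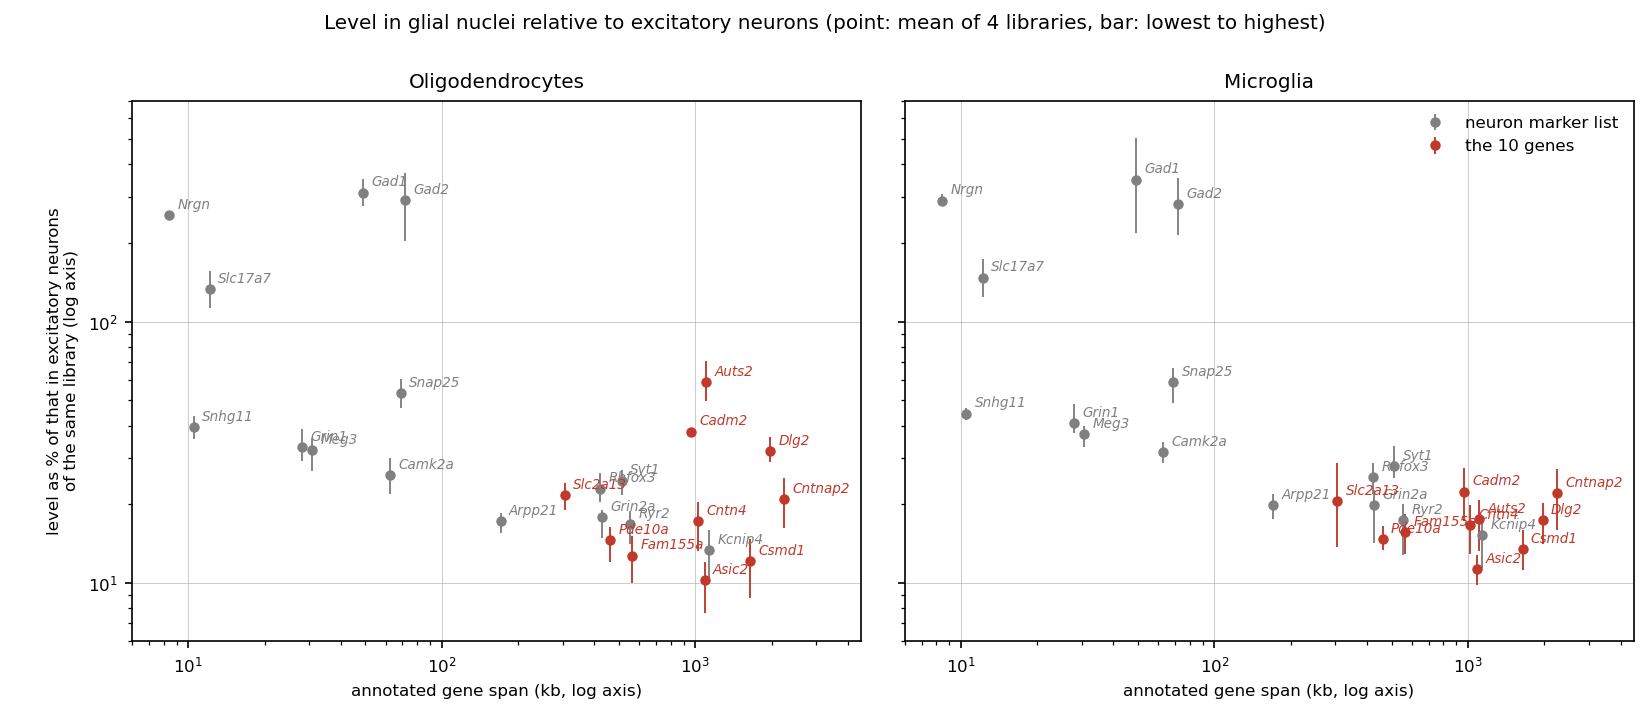
Level in oligodendrocytes (left) and microglia (right) as a percentage of the level in excitatory neurons of the same library (log axis) against annotated gene span (log axis), for 15 of the 16 neuron markers (grey) and the 10 genes (red). Points are means of 4 libraries and bars run from the lowest to the highest library; in microglia Asic2 and Csmd1 lie below every marker drawn, and in oligodendrocytes Auts2, Cadm2 and Dlg2 lie above all the long ones drawn.

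The long markers were lower in knockout oligodendrocytes, microglia, fibroblasts and mural cells, and not in every class outside the neurons. Their share of the excitatory level was 19.2% and 19.8% in wildtype and 14.6% and 16.6% in knockout oligodendrocytes. In microglia it was 20.9% and 22.7% against 16.1% and 19.3%. The groups did not overlap in either class (exact permutation test, two-sided, p = 0.333 in each, the smallest that 2 against 2 can give). In astrocytes the shares were 21.9% in wildtype and 22.1% in knockout as means, and in oligodendrocyte precursors 22.7% and 23.1%, with overlapping groups in both. Committed precursors also overlapped (22.2% and 22.4%). Means in fibroblasts were 34.1% in wildtype and 21.4% in knockout, and in mural cells 36.0% and 25.5%, without overlap in either. Of the 7 markers, 6 had both knockout libraries below both wildtype ones in oligodendrocytes and 5 in microglia. Over all genes tested the share was 22.3% and 19.6%. In oligodendrocytes it was 34.1% for genes of 100 to 300 kb and 63.8% for those of at least 500 kb. The same bins gave 28.85% and 65.4% in microglia, so the counts are not particular to neuron markers. The share of the whole list overlapped in both classes (exact permutation p = 0.667 in each). Of single markers, Kcnip4 was at 1036 and 1109 CPM in wildtype and 764 and 804 in knockout oligodendrocytes (-0.43 ± 0.11, edgeR adjusted p = 0.0774). In excitatory neurons it was 0.08 ± 0.04 higher in the knockout. Nrgn was 0.46 ± 0.13 higher in knockout oligodendrocytes and 0.39 ± 0.14 higher in excitatory neurons. Of the 16 markers 14 had negative values in oligodendrocytes, with a median of -0.32, and 13 in microglia, with a median of -0.27. The medians of all genes tested were -0.01 and 0.01. Of all genes with an annotated span, 51.1% and 49.4% had negative values.

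A change that free RNA alone would carry into glia follows from 2 measured values: the change of the gene in excitatory neurons plus the change of the free RNA share, both on library totals without TMM scaling. With the long markers this came to between -0.83 and -0.39 for the 10 genes in oligodendrocytes, with a median of -0.56, beside a median measured change of -0.69. The measured changes are those that chose the genes, so the values are set side by side as a description and support no account of them. Slc2a13 measured -0.73 and computed -0.73, Pde10a -0.69 and -0.71, and Dlg2 -0.44 and -0.50. Csmd1 measured -0.67 beside a computed -0.39. Auts2 (-0.08 measured, -0.83 computed) and Cadm2 (-0.27 and -0.55) were less negative than computed. In microglia the medians were -0.62 measured and -0.54 computed. Slc2a13 measured -1.39 and computed -0.72 there, Pde10a -0.23 and -0.69, and Asic2 -0.15 and -0.58. With the share of the whole list, the planned estimate, the computed medians were -0.38 in oligodendrocytes and -0.33 in microglia. These lay further from the measured medians than those of the long markers. The long markers are long genes like the 10, and long genes in general were lower in these classes. Their computed values hold that fall whatever its source, so nothing is read from which estimate lay closer. The computed value has an error of its own that was not estimated.

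**Figure D4:**
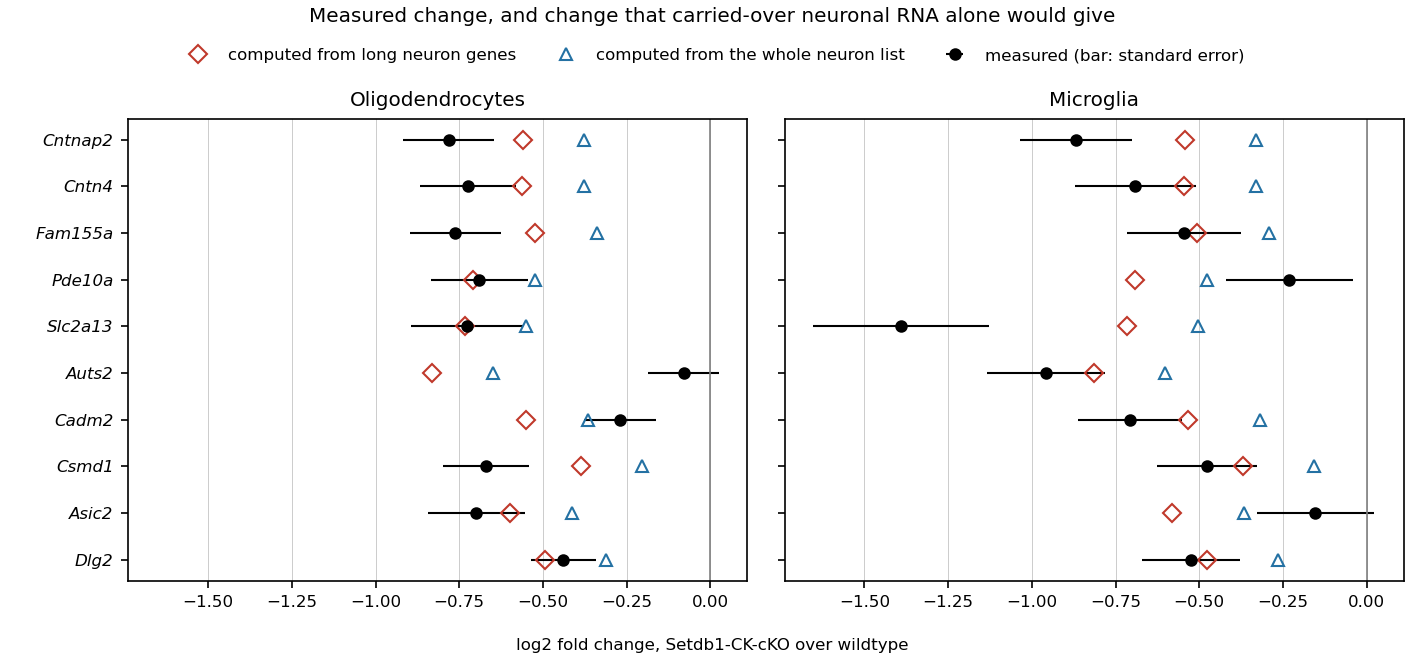
Log2 fold change on library totals, Setdb1-CK-cKO over wildtype, for each of the 10 genes in oligodendrocytes and microglia: black points are measured values with standard errors, red diamonds and blue triangles the values computed from the change in excitatory neurons and the share of free neuronal RNA in each genotype. Auts2 in oligodendrocytes lies at -0.08 far above its diamond at -0.83, and Slc2a13 in microglia at -1.39 below its own at -0.72.

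Taking the estimated free RNA away left little to compare. With the rate of the long markers, 5 of the 10 genes kept enough counts to be fitted in oligodendrocytes and 2 in microglia. Auts2 was then at 0.21 in oligodendrocytes, above 0, Cadm2 at -0.07 and Dlg2 at -0.42. Slc2a13 and Cntnap2 rested on small remainders, the latter at -2.13. With the rate of the whole list 3 genes were left in oligodendrocytes, Auts2 at 0.50, Cadm2 at 0.05 and Dlg2 at -1.55. None was left in microglia.

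Astrocytes and oligodendrocyte precursors were not among the classes that chose the genes, although they share the libraries, and the fall of Pde10a in astrocytes was known beforehand. All 10 had values below 0 in both classes, as did 50.8% of all genes tested in each. Among genes of at least 500 kb, long members included, 65% did in astrocytes and 81.5% in oligodendrocyte precursors. The share over all genes is thus a low background for genes this long. In astrocytes 1 of the 10 genes was called lower, against 0.0246% of all genes tested, and 4 had both knockout libraries below both wildtype ones, against 19.1%. Pde10a fell, from 580 and 846 CPM in wildtype to 331 and 312 in knockout libraries (-1.16 ± 0.20, edgeR adjusted p = 0.0446). The call was lost without wildtype replicate 2 (-0.88, adjusted p = 0.217) and in nuclei of at least 1000 UMIs (-1.17, adjusted p = 0.0807). Auts2 was at 2224 and 2163 CPM against 1615 and 1530 (-0.49 ± 0.13, edgeR adjusted p = 0.280), and Asic2 at 1137 and 1309 against 807 and 824 (-0.60 ± 0.15, edgeR adjusted p = 0.237). The groups did not overlap for either gene, and neither passed the test. For Csmd1, Dlg2 and Fam155a, knockout replicate 1 was the lowest of the 4 libraries and replicate 2 the highest. That replicate 1 also had the least neuronal RNA in astrocytes (22.4% of the excitatory level, against 24.9%, 33.1% and 36.8% in the others), and its part was not tested.

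Astrocytes came from 2 clusters whose makeup differed between genotypes. Cluster 14 held 1029 and 989 wildtype and 468 and 477 knockout nuclei, and cluster 29, led by Slco1a5 and Def8 among others, held 19 and 34 against 200 and 369. In cluster 14 alone, a check added after the data were seen, Pde10a was at -1.75 ± 0.19. Cntn4 was at -0.83 ± 0.18 there (edgeR adjusted p = 0.0360). These 2 of the 10 genes were called, against 0.169% of all genes tested in that cluster. The fall of Pde10a in astrocytes was known beforehand, so nothing is read from that count.

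In oligodendrocyte precursors 0 of 10 were called by edgeR or by DESeq2, 0% of all 9124 genes were called lower by edgeR, and 1 of the 10 had an unadjusted p under 0.05. For 7 genes both knockout libraries lay below both wildtype ones (background 19.4%, and 42.1% among genes of at least 500 kb). The largest difference was that of Asic2, at 1003 and 1029 CPM against 715 and 834 (-0.39 ± 0.13, edgeR adjusted p = 0.529). Pde10a was at 381 and 526 against 439 and 447, with full overlap. In fibroblasts 8 of 10 did not overlap and were lower (background 18.6%) and in mural cells 6 of 10 (background 17.8%), with 0 called by edgeR in either class (0% of all genes), where 4 and 3 of the 10 had an unadjusted p under 0.05. For these unadjusted counts, and that in precursors, the share of all genes was not counted, so nothing is read from them. In committed oligodendrocyte precursors 9 of the 10 were tested and 4 had both knockout libraries below both wildtype ones (background 16.5%). Auts2 was at 0.02 ± 0.24 there and Dlg2 at -0.01 ± 0.26.

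Long genes in general were lower in the knockout, though not evenly in astrocytes. Among genes of at least 500 kb other than these 10, the median log2 fold change was -0.12 in excitatory neurons (225 genes), -0.28 in oligodendrocytes (210) and -0.43 in microglia (197). For genes under 10 kb it was 0.11, 0.16 and 0.21. The medians of the 10 were -0.27, -0.68 and -0.61. Fibroblasts had a median of -0.48 for the other long genes (200), below that of microglia. In astrocytes the replicate pairs differed for genes of at least 500 kb, long members included. Their median was -0.28 between the libraries numbered 1 and 0.02 between those numbered 2. Slc2a13 and Pde10a are themselves shorter than 500 kb. The backgrounds for both knockout libraries below both wildtype ones, given above, cover genes of any span. Among genes of at least 500 kb, long members included, that share was 59.7% in excitatory and 53.3% in inhibitory neurons. It was 63.8% in oligodendrocytes, 65.4% in microglia, 21.4% in astrocytes, 46.2% in fibroblasts and 29.3% in mural cells. Since these contrasts chose the genes, their places among long genes of at least 20 CPM are a description. In excitatory neurons the number of 200 such genes with a lower value ran from 5 for Auts2 to 113 for Csmd1. In oligodendrocytes it ran from 12 of 197 for Cntnap2 and Fam155a to 110 for Cadm2 and 150 for Auts2. In microglia it ran from 0 of 197 for Slc2a13 to 131 for Pde10a and 144 for Asic2.

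**Figure D5:**
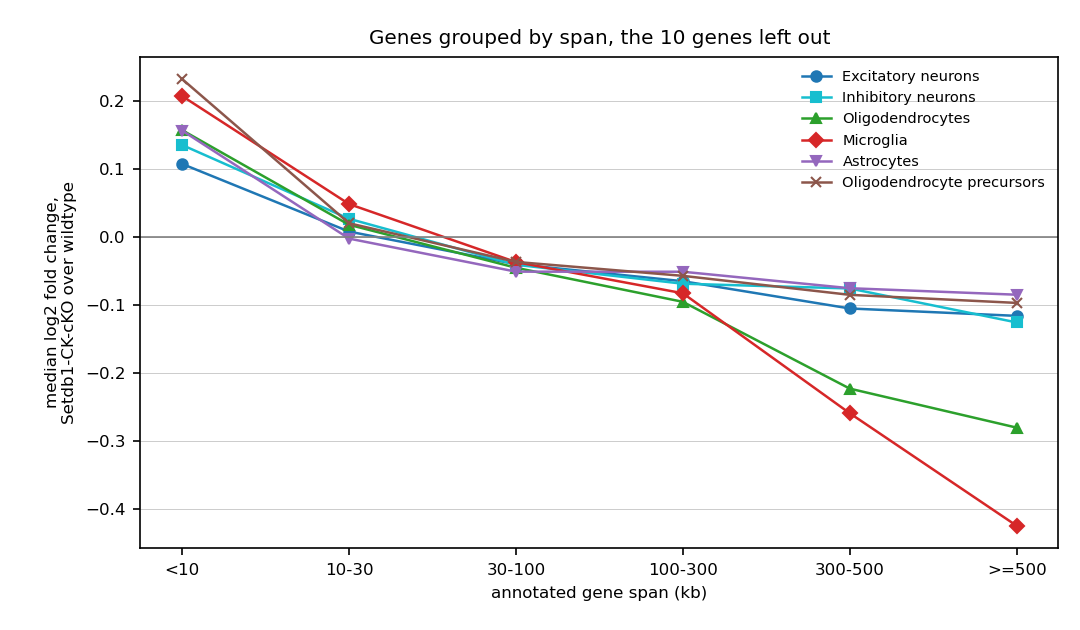
Median log2 fold change, Setdb1-CK-cKO over wildtype, of all other genes tested, grouped by annotated span in kb, for 6 classes (1 line each). The medians go from above 0 for genes under 10 kb to below 0 for genes of at least 500 kb in all 6 classes, with the lowest in microglia (-0.43) and oligodendrocytes (-0.28). In astrocytes the sign for the longest genes differed between replicate pairs.

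Relatives of the 10 genes were looked at through lists of their families, 43 other genes in all (contactins, SynCAMs, CSMD proteins, scaffolds of the MAGUK family, acid-sensing channels, the NALCN complex, phosphodiesterases, sugar transporters and Auts2 relatives). In excitatory neurons 42 were tested, 3 fell, 0 rose and 39 did not pass, where 1.38% of all genes were called lower and 3.02% higher. Of genes spanning 300 to 500 kb 7.76% were called lower there, and of those of at least 500 kb 14.2%. The relatives were not matched for span, so no excess is read from the 3. Csmd2, a relative of Csmd1 that spans 580 kb, fell from 739 and 776 CPM (TMM-scaled) to 581 and 569 (-0.40 ± 0.07, edgeR adjusted p = 0.0122). The phosphodiesterases Pde4b (-0.45 ± 0.07, edgeR adjusted p = 0.00884) and Pde7b (-0.40 ± 0.08, edgeR adjusted p = 0.0239) fell as well. In oligodendrocytes 39 of the 43 were tested and in microglia 34, with 0 called by edgeR in either and 9 and 11 at an unadjusted p under 0.05. The share of all genes under that unadjusted p was not counted, so nothing is read from the 9 and 11. Of all genes, 0.504% and 0.0444% were called lower and 0.447% and 0.0888% higher in these classes. All 10 other contactins and contactin-associated genes tested had negative values in oligodendrocytes, with a median of -0.38. So did 51.1% of all genes with an annotated span, 75.9% of those of 300 to 500 kb and 83.0% of those of at least 500 kb. The count was not matched for span, so it is not read as a result about the family. In striatal projection neurons, where 0.616% of all genes were called lower and 0.404% higher, Cntn5 fell (-0.67 ± 0.16, edgeR adjusted p = 0.00686), while Cntnap5a (1.01 ± 0.20, edgeR adjusted p = 0.000305) and Pde1a (1.29 ± 0.26, edgeR adjusted p = 0.000455) rose, so relatives of these genes did not all move one way.

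Across 10 classes and 4 libraries (40 points that share libraries), the gene whose log2 level ran most like that of Cntn4, Fam155a and Csmd1 was Lrrtm4, a synaptic adhesion gene (Pearson r of 0.96, 0.93 and 0.96, a description). For Dlg2 it was Nbea (0.94), for Asic2 Adgrb3 (0.95), for Cadm2 Plcb1 (0.92), for Pde10a Dab1 (0.94), for Slc2a13 Runx1t1 (0.94) and for Cntnap2 the non-coding Rian (0.94). For Auts2 it was Gm42439 (0.97), which overlaps Auts2 on the opposite strand.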

How the data were processed

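The authors deposited raw UMI counts per gene and barcode. Per the submitters' processing notes the tool was Cell Ranger 7.1.0 and the build mm10. No source used here says how introns were counted or whether free RNA was removed. Barcodes needed 500 UMIs, 300 genes and no more than 5% mitochondrial UMIs. Scrublet doublets (2464, expected rate 10%) were removed, and nuclei were clustered with scanpy 1.11.5 (2000 variable genes without the 10 genes, 30 components, 15 neighbours, Leiden resolution 1.0, seed 1). Clusters were named from marker lists by a rule set after the clusters were seen, so shares and levels depend on rebuilt names. Counts per class and library were tested with edgeR 4.0.16 under R 4.3.3 (glmQLFit, glmQLFTest, filterByExpr minimum count 10, TMM, genotype alone), Benjamini-Hochberg over all genes of the class, threshold 0.05. The fits were tested on simulated data. Free RNA is the neuron marker sum in a class over that in excitatory neurons. Annotation was GENCODE vM21. Libraries held 38314394 to 45605971 UMIs. Named genes are the 10, the gene most like each, and called members of the family lists. Alternatives were DESeq2 1.42.0, other scalings and filters, deeper nuclei, left-out libraries and a replicate block. The members and lists were chosen with earlier results of these data known. One marker of the neuron list is not reported here by itself.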

Additional observations from a re-analysis of the deposited data

How the results depend on the processing

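Over 12 fits per class that did not take free RNA away, the 10 genes stayed below 0 in excitatory neurons and oligodendrocytes in every fit. This held for 9 genes in inhibitory neurons, 8 in microglia and in striatal projection neurons, 7 in oligodendrocyte precursors and, over 13 fits, 6 in astrocytes. Without knockout replicate 1, 6 of the 10 were below 0 in astrocytes, and leaving out 1 library gave -0.58 to 0.029 for Cntnap2, -0.96 to 0.26 for Fam155a, -0.72 to 0.34 for Csmd1 (0.043 without wildtype replicate 2) and -0.65 to 0.18 for Dlg2. In precursors it gave -0.61 to 0.20 for Cntnap2, -0.25 to 0.21 for Pde10a and -0.17 to 0.029 for Slc2a13. With free RNA by the long markers taken away Slc2a13 was at 0.092 in astrocytes, and Cntnap2, Pde10a and Slc2a13 at 0.36, 0.31 and 0.25 in precursors; by the whole list Slc2a13 was at 1.23 in astrocytes, and Pde10a, Slc2a13 and Auts2 at 0.64, 0.53 and 0.023 in precursors. The cause was not tested.

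Calls of lower genes among the 10 in astrocytes were 1 in the reported fit (0.0246% of all genes), 0 to 2 with 1 library left out (0.0398% to 0.491%), 3 without the filter on low counts (0.292%), 0 at 1000 UMIs (0.00851%) and 2 in cluster 14 alone (0.169%). With the replicate block they were 4, and calls over all genes rose from 3 to 153 (1.26%). The fall of Pde10a in astrocytes was known beforehand, so nothing is read from these counts. Deviations of same-numbered libraries correlated across genes (0.78 in excitatory neurons, 0.44 in oligodendrocytes), but with 2 pairs the labels give only a shared number.

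The mean free RNA estimate of the whole list, 29.7% in oligodendrocytes, 33.8% in microglia, 29.3% in astrocytes and 30.5% in precursors, was 17.5%, 19.7%, 22.0% and 22.9% by the long markers and 13.3%, 15.1%, 19.1% and 17.7% by the lowest single gene. Only nuclei without neuron markers were too few to fit (not run). With 2 animals per genotype, small differences in microglia and striatal nuclei could not be resolved at this depth.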
